A study of Mus musculus with 8 samples.

Results

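The genes described here are Hsd11b1 and 9 genes of the glucocorticoid response: the receptor gene Nr3c1 and the response genes Fkbp5, Tsc22d3, Sgk1, Zbtb16, Klf9, Mt1, Mt2 and Lcn2. They were taken by symbol from a count table of 23372 genes, and where a gene had several transcript rows the one with the largest summed count was used. All 10 were found, and all 10 passed the filter on low counts that left 14178 genes for testing. The libraries are RNA-seq of brown adipose tissue from C57BL/6 N mice at 10 weeks of age. The 4 knockout (KO) libraries come from mice in which a floxed Lsd1 gene was combined with Ucp1-Cre, and the 4 control (ctrl) libraries from mice with the floxed Lsd1 gene without Cre. Lsd1, whose gene symbol is Kdm1a, is a histone demethylase. Cre was driven by the Ucp1 promoter, so cells in which that promoter is silent keep the gene, and the presence of Cre and the loss of Lsd1 cannot be told apart. Sex was not given, and the labels do not say whether a library is 1 mouse or a pool, so p-values measure the spread between these libraries.

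Glucocorticoids are steroid hormones of the adrenal cortex. In many tissues, fat among them, the enzyme 11-beta-hydroxysteroid dehydrogenase type 1, encoded by Hsd11b1, regenerates the active hormone (corticosterone in mice) from its inactive keto form, using NADPH that H6pd makes inside the endoplasmic reticulum. The hormone binds the receptor encoded by Nr3c1, which is held ready by the Hsp90 and Hsp70 chaperones, enters the nucleus and binds DNA at glucocorticoid response elements near its target genes. In brown fat, glucocorticoids are known for their effects on thermogenic genes and on lipid storage. Hormone levels and enzyme activity were not measured in these libraries.

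Sequence upstream of the members is shown here because the elements searched for are where the receptor (GRE), the zinc-sensing factor of metallothioneins (MRE) and C/EBP factors bind. Windows of 250 bases before a transcript's first base, from RefSeq on GRCm38.p6, were at hand for 8 of the 10 members, all but Nr3c1 and Zbtb16. Each sequence is written 5′ to 3′ on the gene's own strand, and capitals mark matches on either strand. Positions give the first base of a match, counted back from -1 at the base before the transcript.
Hsd11b1: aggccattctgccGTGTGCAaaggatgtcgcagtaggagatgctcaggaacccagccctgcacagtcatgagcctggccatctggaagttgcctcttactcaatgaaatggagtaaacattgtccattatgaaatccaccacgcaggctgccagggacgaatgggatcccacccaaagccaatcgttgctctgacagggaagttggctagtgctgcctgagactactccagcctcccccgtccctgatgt
Tsc22d3: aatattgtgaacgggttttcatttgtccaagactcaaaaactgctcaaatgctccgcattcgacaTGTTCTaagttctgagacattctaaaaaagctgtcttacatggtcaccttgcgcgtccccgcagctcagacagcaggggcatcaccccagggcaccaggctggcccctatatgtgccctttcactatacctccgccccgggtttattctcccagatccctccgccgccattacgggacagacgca
Sgk1: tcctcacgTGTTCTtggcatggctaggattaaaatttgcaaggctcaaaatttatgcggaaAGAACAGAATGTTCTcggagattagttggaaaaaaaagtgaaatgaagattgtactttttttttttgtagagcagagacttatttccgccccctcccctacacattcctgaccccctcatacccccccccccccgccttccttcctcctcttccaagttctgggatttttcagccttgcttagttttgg
Mt1: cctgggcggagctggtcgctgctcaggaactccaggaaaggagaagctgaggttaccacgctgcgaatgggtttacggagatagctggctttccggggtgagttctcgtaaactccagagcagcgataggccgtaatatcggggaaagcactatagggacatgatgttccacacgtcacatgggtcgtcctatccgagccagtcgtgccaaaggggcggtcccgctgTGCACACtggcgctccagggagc
Mt2: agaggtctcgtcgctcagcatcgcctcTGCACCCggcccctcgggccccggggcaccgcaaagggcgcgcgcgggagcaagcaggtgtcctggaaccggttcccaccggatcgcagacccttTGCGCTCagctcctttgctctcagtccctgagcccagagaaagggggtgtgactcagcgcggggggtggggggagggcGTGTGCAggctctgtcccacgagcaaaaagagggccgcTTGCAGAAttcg
The Hsd11b1 window, chr1:193242361-193242610 on the minus strand, held none of the GRE letters searched, and its capitals are a single MRE core at -237. The Tsc22d3 window, chrX:140600523-140600772 on the minus strand, lies before the longer transcript and has a GRE arm, AGAACA read on the other strand, at -185. The Sgk1 window, chr10:21993640-21993889 on the plus strand, holds the full GRE palindrome, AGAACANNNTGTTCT, at -189. A further arm lies at -242, and the arms at -189 and -180 are parts of the palindrome. The Mt1 window, chr8:94178839-94179088 on the plus strand, has an MRE core at -23, and that of its neighbour Mt2, chr8:94172368-94172617 on the plus strand, has MRE cores at -223, -128 and -50 and a C/EBP core at -12.

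Among all 32851 windows of this length, 3 held the GRE palindrome (0.00913%), 16.1% held at least 1 arm (AGAACA) and 0.189% held 3 or more. The MRE core, searched as TGCACNC or TGCGCNC, was in 21.4% of windows, and 1.26% held 3 or more. The C/EBP core TTGCNNAA was in 9.56%, and it lay at -216 in the Lcn2 window and at -210 in an Sgk1 window not printed. TGACGTCA was in 1.55% of windows and TATAAA in 12.4%. No printed window held either, and TATAAA lay in other Sgk1 windows at -28 and -11. The windows of Fkbp5 and Klf9 held none of these letters. The palindrome therefore sets a start of Sgk1 apart from nearly all other windows, while a lone arm or MRE core is common. The transcript that follows the palindrome is one of 6 rows of Sgk1, which share most of their counted exons. Sgk1 and Tsc22d3 had several windows each, and the Sgk1 window printed was chosen because it holds the palindrome. The window before the Sgk1 row used for testing, chr10:21994416-21994665, held no GRE arm. For Tsc22d3, none of the windows lay directly before the row used for testing, chrX:140539529-140543185 on the minus strand. Other Sgk1 windows held single arms at -195 and -13, and the other Tsc22d3 windows held none. Only letters before RefSeq starts were searched, so elements past an annotated start, of Mt1 for example, would be missed. Which starts were in use was not measured. A match is a string of letters, and receptor binding was not measured.

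Summed over all rows, the libraries held 33011022 to 38756920 counts. Values are given as CPM, gene counts scaled to a common library total with edgeR's TMM factors, and levels are compared between genes only as CPM per kilobase (kb) of transcript. Kdm1a had 13.96, 12.2, 13.2 and 13.0 CPM in KO libraries 512, 513, 515 and 516, against 35.3, 36.0, 33.3 and 36.9 CPM in ctrl libraries 511, 514, 517 and 518 (log2 fold change -1.43, edgeR adjusted p = 2.66e-05). Ucp1, the thermogenic uncoupling protein of brown fat, averaged 1377 ± 161 CPM in KO and 4481 ± 1200 CPM in ctrl (SD, n = 4 each; log2 fold change -1.70, edgeR adjusted p = 0.000477). Across all tested genes, 2189 (15.4%) were called higher and 2682 (18.9%) lower in KO by edgeR's quasi-likelihood test at an adjusted p of 0.05, with a median log2 fold change of -0.01.

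Of the 10 members, Hsd11b1 and Tsc22d3 were called higher in KO, Nr3c1 was called lower, and 7 had no call. That is 20% higher and 10% lower, beside 15.4% and 18.9% of all tested genes (34.4% in either direction), so the number of calls among these genes is near the background of this comparison. Their median log2 fold change was 0.44, beside -0.01 over all tested genes. Of the 10 log2 fold changes 7 were positive, beside 6905 of 14178 over all tested genes. In 2 members, the same Hsd11b1 and Tsc22d3, all KO libraries lay above all ctrl libraries, beside 15.7% of all tested genes, and in none did all KO libraries lie below, beside 19.7% (35.5% with no overlap in either direction). In this bulk tissue, fewer cells of a type and less RNA per cell cannot be told apart.

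**Figure D1:**
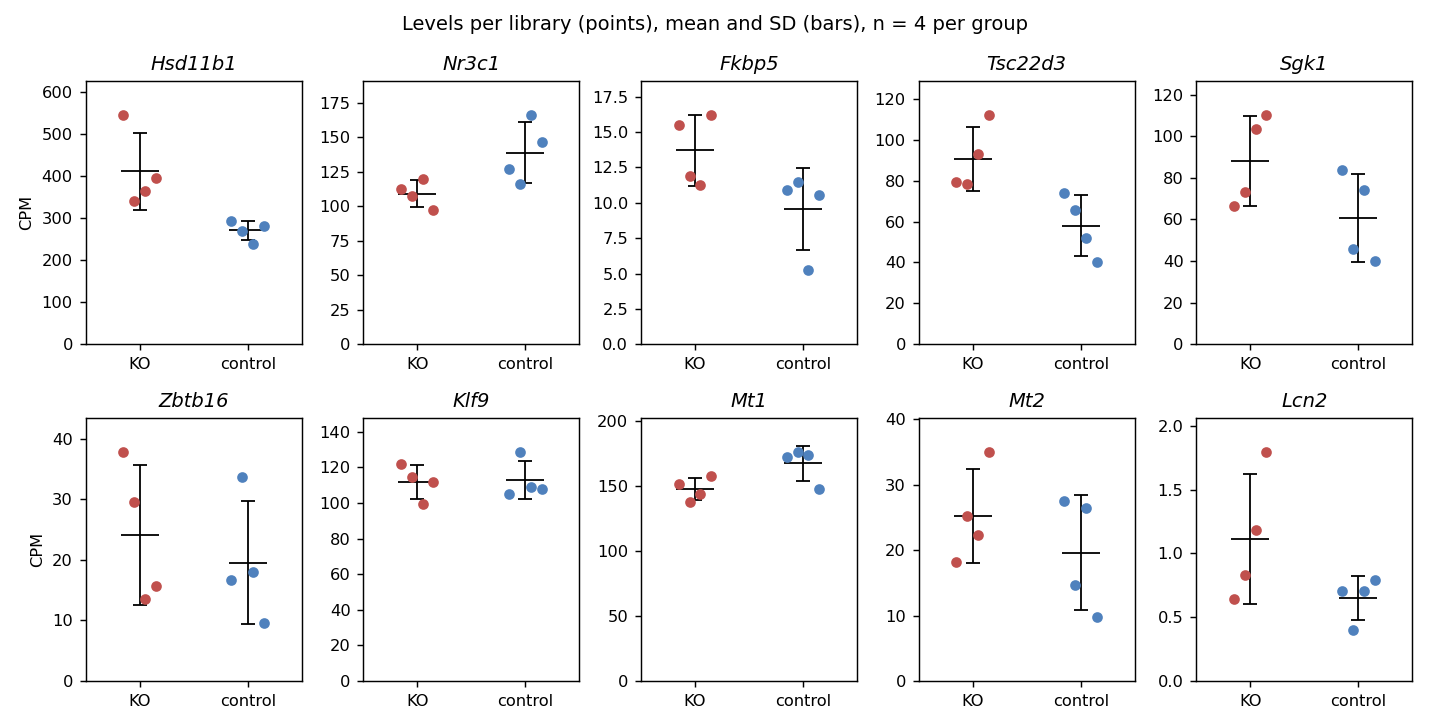
Levels of the 10 genes in CPM (vertical axis, starting at 0), with 1 point per library, KO left of control, and the mean and SD over 4 libraries as bars. Hsd11b1 and Tsc22d3 are the panels in which the groups do not overlap, and Nr3c1 is lower in KO with 1 KO library above the lowest control.

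**Figure D2:**
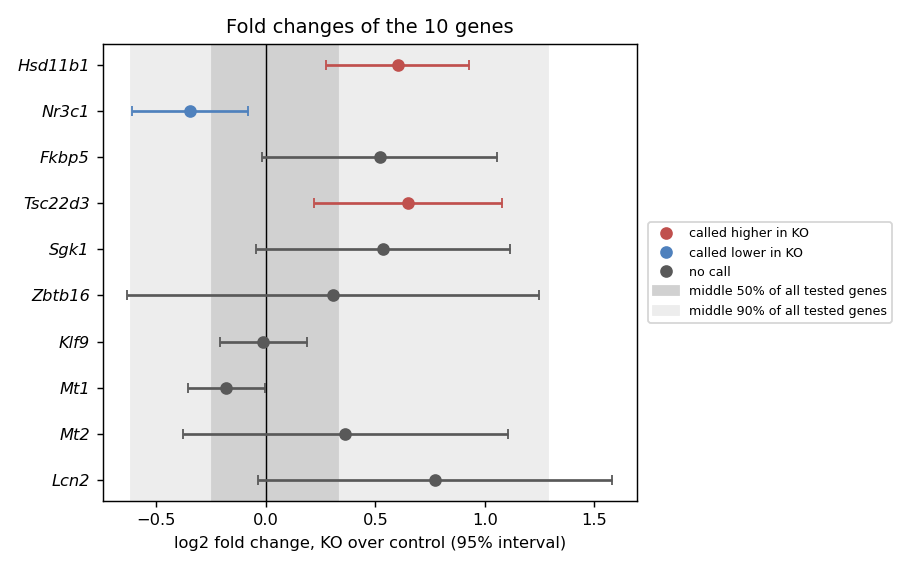
Log2 fold change of each gene, KO over control, with its 95% interval, against the middle 50% and middle 90% of all 14178 tested genes (grey bands). Hsd11b1, Tsc22d3, Fkbp5, Sgk1 and Lcn2 lie between 0.52 and 0.77, and the intervals of Fkbp5, Sgk1 and Lcn2 include 0.

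Hsd11b1 lies on chromosome 1 (mm10 chr1:193221641-193242360, minus strand). Its level was 545.4, 341.4, 366.0 and 395.3 CPM in KO libraries 512, 513, 515 and 516, against 293.9, 269.0, 239.7 and 282.7 CPM in ctrl libraries 511, 514, 517 and 518. Library KO 512 stood highest, and every KO library was above the highest ctrl library. The means were 412.0 ± 91.6 CPM in KO and 271.3 ± 23.4 CPM in ctrl (SD, n = 4 each), a 1.52-fold difference. On the log2 scale the difference was 0.60 with a standard error (SE) of 0.14 and a 95% interval of 0.28 to 0.93, and it passed the test (edgeR adjusted p = 0.0124). Among tested genes 14.2% had a higher log2 fold change, and the mean level of Hsd11b1 per kb was above that of about 98.2% of them. The second transcript row, which starts further upstream (chr1:193221641-193264045), had 391.3 CPM in KO and 259.0 CPM in ctrl, a ratio of 1.51, and shares most of its exons with the first. Without KO 512 the log2 fold change of the first row was 0.44 (edgeR adjusted p = 0.0115). In the authors' deposited table, the fold for Hsd11b1, knockout over control, was 1.5 with an FDR of 0.0042.

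Skeletal muscle transcripts moved with the groups. The summed level of 14 muscle markers was 18260, 12140, 10930 and 8478 CPM in KO libraries 512, 513, 515 and 516, against 5115, 345.4, 4337 and 7502 CPM in ctrl libraries 511, 514, 517 and 518. The groups did not overlap in this sum, though of the 14 markers edgeR called 1 higher (Myh2) and none lower, and none of the 14 was at 0 in all libraries. KO 512, the library with the most muscle transcripts, also had the most Hsd11b1. The other libraries did not all follow this order. KO 513, next in muscle sum, had the least Hsd11b1 of the KO libraries (341.4 CPM). Ctrl 514, with the lowest muscle sum, lay between other controls (269.0 CPM). A fit that adds a muscle score as covariate put Hsd11b1 at 0.53 and lost the call (edgeR adjusted p = 0.0768). The score did not overlap between the groups (8.648 to 9.723 in KO and 4.083 to 8.448 in ctrl). Muscle content and genotype therefore cannot be told apart in this fit, here and for the genes below. Over all tested genes it called 1446 higher, against 2189 without the covariate. Leaving out KO 512 and ctrl 514, the libraries with the highest and lowest muscle sums, put Hsd11b1 at 0.43 (edgeR adjusted p = 0.0222). The covariate left Tsc22d3 at 0.86 (edgeR adjusted p = 0.0303) and Nr3c1 at -0.52 (edgeR adjusted p = 0.0210).

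**Figure D3:**
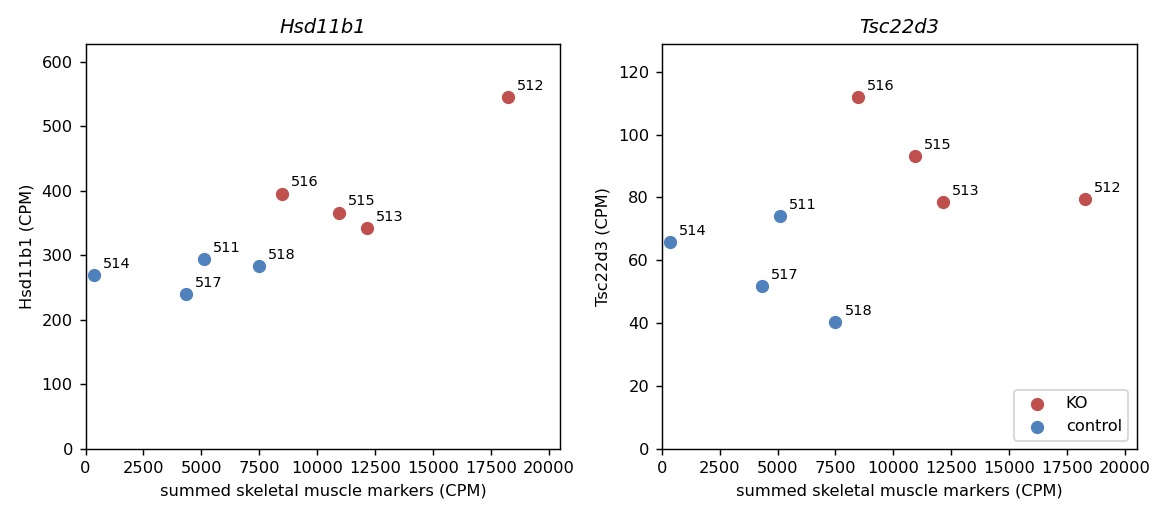
Level of Hsd11b1 (left) and of Tsc22d3 (right) in CPM against the summed level of 14 skeletal muscle markers in CPM, with 1 labelled point per library. KO libraries lie to the right of the controls in both panels. KO 512 is highest on both axes for Hsd11b1, while KO 513, next in muscle sum, is the lowest KO library for Hsd11b1. KO 516, with the least muscle transcript among KO libraries, is highest for Tsc22d3.

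Summed adipocyte markers also differed between the groups without overlap, while the sums of the other cell types given here overlapped. Among all tested genes, 15.4% were called higher and 18.9% lower. Summed brown adipocyte markers were 5705 to 6228 CPM in KO and 9255 to 12455 CPM in ctrl, with 7 of 10 called lower, and summed pan-adipocyte markers were 18541 to 21453 CPM in KO and 27782 to 34166 CPM in ctrl, with 5 of 10 called lower. None of those adipocyte markers was at 0 in all libraries of this tissue, which is labelled brown adipose. Of 11 macrophage markers 4 were called higher, with sums of 215.1 to 322.0 CPM in KO and 124.0 to 220.0 CPM in ctrl. Of 11 fibroblast and preadipocyte markers Cd34 was called higher, and the sums overlapped, at 1893 to 2853 CPM in KO and 1045 to 2204 CPM in ctrl. Endothelial sums were 1269 to 1488 CPM in KO and 1192 to 1361 CPM in ctrl, with 2 of 9 called higher. Of 7 adrenal cortex markers 5 were under 1 CPM in every library, Cyp21a1 and Hsd3b1 at 0 in all 8, and the sums were 9.36 to 13.2 CPM in KO and 8.78 to 11.3 CPM in ctrl. Most of that sum was Mc2r (7.51 ± 1.67 CPM in KO and 6.35 ± 1.48 CPM in ctrl), the corticotropin receptor, and Star (3.24 ± 0.237 CPM in KO and 3.42 ± 0.441 CPM in ctrl), a cholesterol transporter, and neither was called. The part of these cell types in the results for the members was not tested.

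Of 18 listed enzymes and transporters of corticosteroid metabolism, 8 were tested. Besides Hsd11b1, Srd5a3 was called higher, H6pd was called lower, and 5 had no call, beside 34.4% of all tested genes called in either direction. H6pd, which makes the cofactor for the Hsd11b1 reaction, had 243.7, 235.9, 260.0 and 224.5 CPM in KO libraries 512, 513, 515 and 516, against 315.3, 298.9, 363.0 and 444.1 CPM in ctrl libraries 511, 514, 517 and 518. All KO libraries were below all ctrl libraries (241.0 ± 14.9 CPM in KO and 355.3 ± 65.1 CPM in ctrl; log2 fold change -0.56, SE 0.12, edgeR adjusted p = 0.00837). Hsd11b1 and H6pd thus differed in opposite directions: the ratio of their CPM per kb was 7.93, 5.13, 4.99 and 6.24 in KO, against 3.30, 3.19, 2.34 and 2.26 in ctrl. Hsd11b1 was the more abundant per kb in every library. That ratio was chosen after both values were seen and was not tested. Srd5a3, a reductase of the steroid 5-alpha-reductase family that also makes dolichol, averaged 16.1 ± 0.253 CPM in KO and 8.81 ± 1.42 CPM in ctrl (log2 fold change 0.87, edgeR adjusted p = 0.00112). With the muscle score as covariate H6pd stayed at -0.74 (edgeR adjusted p = 0.00513) and Srd5a3 at 1.03 (edgeR adjusted p = 0.00268).

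Akr1c14, a hydroxysteroid dehydrogenase, had a log2 fold change of 0.77 (edgeR adjusted p = 0.113) and Srd5a1, which reduces steroid hormones, one of -0.20 (edgeR adjusted p = 0.660). The other 10 listed genes were too low to test. Among them was Hsd11b2, the enzyme that inactivates the hormone, at 0.116 ± 0.0456 CPM in KO and 0.0382 ± 0.0533 CPM in ctrl. Of the pair of dehydrogenases, Hsd11b1 is therefore the one with an appreciable transcript level in these libraries.

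Nr3c1, the glucocorticoid receptor gene, lies at mm10 chr18:39410545-39487245 on the minus strand. It had 112.5, 107.2, 119.9 and 97.0 CPM in KO libraries 512, 513, 515 and 516, against 126.7, 115.9, 165.8 and 146.2 CPM in ctrl libraries 511, 514, 517 and 518. KO 515 lay above the lowest control, ctrl 514, so the groups overlapped. The means were 109.1 ± 9.64 CPM in KO and 138.6 ± 22.0 CPM in ctrl (log2 fold change -0.34, SE 0.12, 95% interval -0.61 to -0.08, edgeR adjusted p = 0.0473). The direction was the same in every alternative fit, but the call is at the edge of the threshold. It was lost without any 1 of the 4 KO libraries (edgeR adjusted p = 0.0757, 0.103, 0.0571 and 0.120 without KO 512, 513, 515 and 516). It was also lost without ctrl 517 (0.101) or ctrl 518 (0.122), and with RLE factors (0.0616), upper quartile factors (0.140) or library sizes alone (0.366). Limma-voom gave -0.31 with an adjusted p of 0.0596, and the authors' deposited table gives a fold of 0.779 with an FDR of 0.0757.

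Most genes for the chaperones that hold the receptor were lower in KO. Of 14 tested genes of receptors and chaperones besides Nr3c1 and Fkbp5, 11 were called lower, none higher and 3 had no call, with a median log2 fold change of -0.35, beside 18.9% called lower among all tested genes. Hspa8, the constitutive Hsp70, had 108.2, 91.4, 98.9 and 109.2 CPM in KO libraries 512, 513, 515 and 516, against 155.9, 204.8, 278.8 and 363.5 CPM in ctrl libraries 511, 514, 517 and 518. The groups did not overlap, and the controls spread far more widely than the KO libraries (log2 fold change -1.30, SE 0.23, edgeR adjusted p = 0.00307). Hspa4, an Hsp70 relative and nucleotide exchange factor, averaged 140.1 ± 12.0 CPM in KO and 219.4 ± 32.1 CPM in ctrl (log2 fold change -0.65, edgeR adjusted p = 0.00287).

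Bag1, another exchange factor of Hsp70, averaged 206.3 ± 21.8 CPM in KO and 276.2 ± 11.7 CPM in ctrl (log2 fold change -0.42, edgeR adjusted p = 0.00533). Fkbp4, the immunophilin that competes with the Fkbp5 product for Hsp90, averaged 153.8 ± 8.42 CPM in KO and 202.1 ± 21.1 CPM in ctrl (log2 fold change -0.39, edgeR adjusted p = 0.00818). Stip1, Dnaja1, Hsp90aa1, Stub1, Ptges3, Dnajb1 and Ppp5c were the other genes called lower; they are named as the rest of the count, after their values were seen. The inducible Hsp90aa1 was among them, while Hsp90ab1, the constitutive Hsp90, had a log2 fold change of -0.09 (edgeR adjusted p = 0.463). Nr3c2, the mineralocorticoid receptor, which also binds corticosterone, was at -0.20 (edgeR adjusted p = 0.393). The count of 11 depends on the scaling and the libraries: it was 7 with upper quartile factors, 2 with library sizes alone, 7 with the muscle covariate, and 5 to 9 with 1 library left out.

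**Figure D4:**
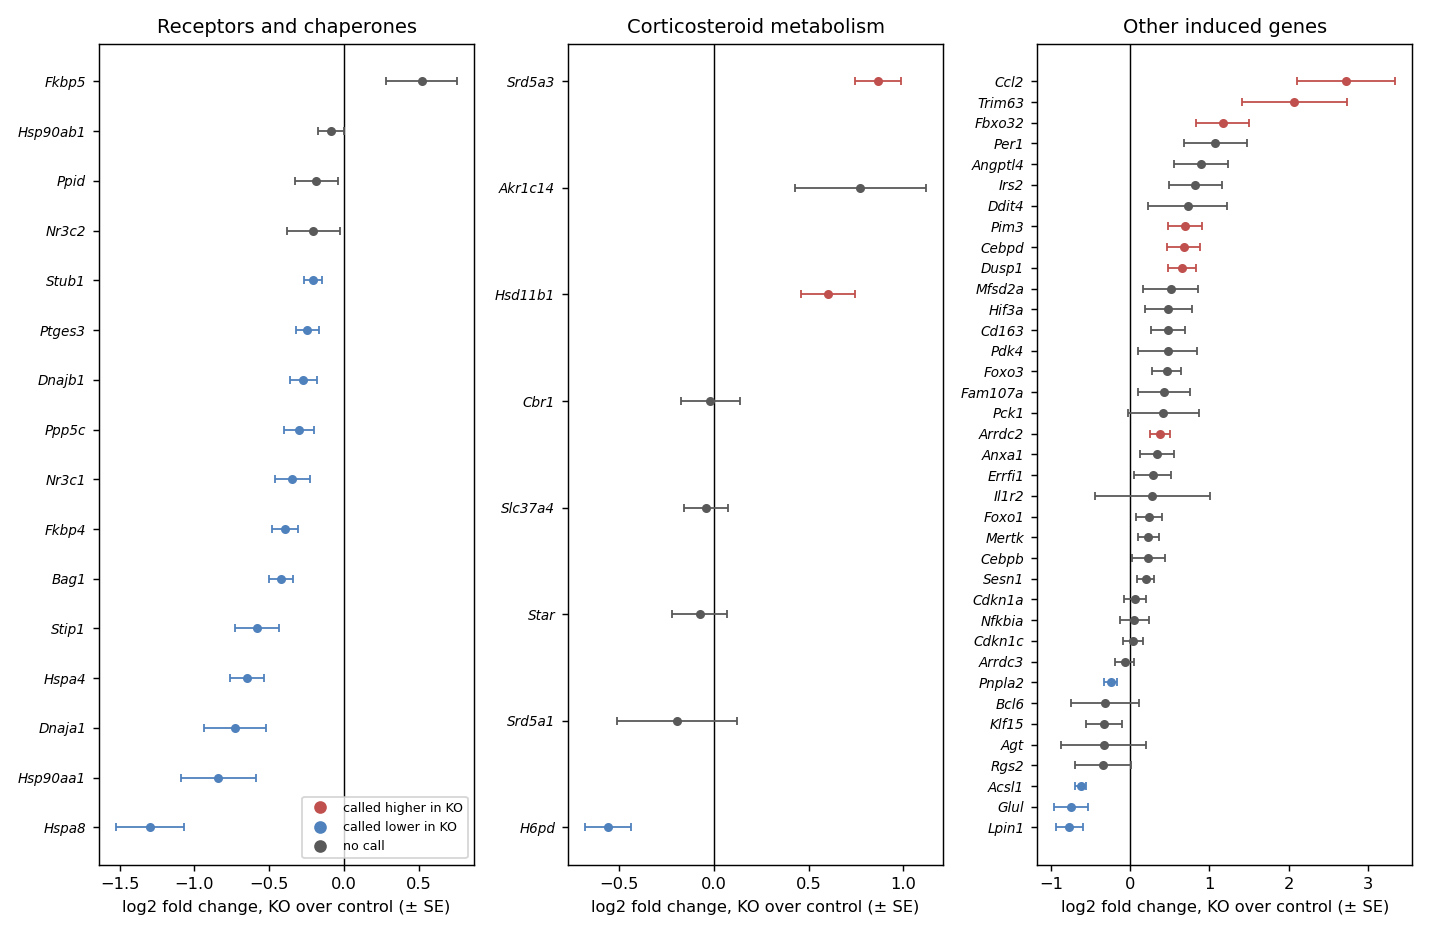
Log2 fold change, KO over control, with its SE for the tested genes of 3 lists. These are receptors and chaperones, corticosteroid metabolism, and other genes that glucocorticoids are known to act on, mostly as inducers. The right panel shows all but 1 of the last list and includes Ccl2, which glucocorticoids are better known to repress. Red points were called higher in KO, blue points lower, and grey points had no call; 12 of the 16 points in the left panel are blue, Nr3c1 among them, and Fkbp5 is the single positive one.

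Fkbp5, a co-chaperone that holds the receptor in a state of low affinity and is itself induced through the receptor, lies at mm10 chr17:28399095-28486112 on the minus strand. It had 15.5, 11.9, 11.3 and 16.2 CPM in KO libraries 512, 513, 515 and 516, against 10.9, 11.5, 5.24 and 10.6 CPM in ctrl libraries 511, 514, 517 and 518. KO 515 lay below ctrl 514, and ctrl 517 stood far below the other controls. The log2 fold change of 0.52 (SE 0.24, 95% interval -0.02 to 1.06) did not pass the test (edgeR adjusted p = 0.118), and it was 0.32 without ctrl 517 (edgeR adjusted p = 0.142).

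Tsc22d3 encodes GILZ, an anti-inflammatory leucine zipper protein, and lies at mm10 chrX:140539529-140543185 on the minus strand. Its level was 79.4, 78.5, 93.2 and 112.0 CPM in KO libraries 512, 513, 515 and 516, against 73.9, 65.8, 51.9 and 40.2 CPM in ctrl libraries 511, 514, 517 and 518. The groups did not overlap, but the lowest KO library, 513, was close to the highest control, 511. The means were 90.8 ± 15.7 CPM in KO and 58.0 ± 14.9 CPM in ctrl, a 1.57-fold difference (log2 fold change 0.65, SE 0.19, 95% interval 0.22 to 1.08, edgeR adjusted p = 0.0281). The row of the longer transcript, which follows the window printed above, had 87.9 CPM in KO and 57.2 CPM in ctrl, a ratio of 1.54. The call was lost without KO 515 (edgeR adjusted p = 0.0641), KO 516 (0.0788) or ctrl 517 (0.0693), with log2 fold changes from 0.53 to 0.63. The authors' deposited table gives Tsc22d3 a fold of 1.55 with an FDR of 0.0076.

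Sgk1, a kinase that regulates ion transport and shares substrates with Akt, lies at mm10 chr10:21994666-21999902 on the plus strand. It had 66.6, 73.1, 103.4 and 110.1 CPM in KO libraries 512, 513, 515 and 516, against 83.6, 45.9, 74.1 and 40.1 CPM in ctrl libraries 511, 514, 517 and 518. Each group held a higher and a lower pair of libraries, and the groups overlapped. The difference, 0.54 on the log2 scale (SE 0.26, 95% interval -0.04 to 1.12), did not pass the test (edgeR adjusted p = 0.135). All 6 rows of the gene, the one behind the GRE palindrome included, gave nearly the same means, 86.1 to 88.3 CPM in KO and 59.4 to 60.9 CPM in ctrl, since they count mostly the same exons; use of a particular start cannot be read from them.

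Zbtb16, a zinc finger transcription factor also called PLZF, lies at mm10 chr9:48654297-48835945 on the minus strand. It had 37.8, 29.6, 13.5 and 15.7 CPM in KO libraries 512, 513, 515 and 516, against 16.7, 33.7, 18.1 and 9.57 CPM in ctrl libraries 511, 514, 517 and 518. The spread within each group exceeded the difference between them, with a coefficient of variation of 47.9% in KO and 52.2% in ctrl, where the medians over all tested genes were 9.38% and 14.2%. Its log2 fold change of 0.31 had an SE of 0.42 and a 95% interval of -0.63 to 1.25 (edgeR adjusted p = 0.599), wide enough to hold a change as large as that of Hsd11b1. It was 0.0046 without KO 512, 0.71 without ctrl 514 and 0.97 with the muscle covariate (edgeR adjusted p = 0.196), and was called in none of these fits.

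Klf9, a Krüppel-like transcription factor, lies at mm10 chr19:23141226-23166911 on the plus strand and was even across libraries. It had 121.7, 114.6, 99.3 and 111.8 CPM in KO libraries 512, 513, 515 and 516, against 105.2, 128.6, 109.1 and 107.8 CPM in ctrl libraries 511, 514, 517 and 518. Its log2 fold change of -0.01 (SE 0.09) did not pass the test (edgeR adjusted p = 0.938), and the 95% interval, -0.21 to 0.19, excludes a change of the size seen for Hsd11b1 or Tsc22d3.

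The metallothioneins bind zinc and copper and are induced by metals as well as by glucocorticoids. Mt1 lies at mm10 chr8:94179089-94180327 on the plus strand and had 151.0, 137.6, 143.8 and 157.7 CPM in KO libraries 512, 513, 515 and 516, against 172.4, 175.9, 173.5 and 147.4 CPM in ctrl libraries 511, 514, 517 and 518. Apart from ctrl 518 the controls were above every KO library. Mt1 differed by -0.18 on the log2 scale (SE 0.08, 95% interval -0.36 to -0.01 before adjustment, edgeR adjusted p = 0.10); it passed the test without ctrl 518 (-0.21, adjusted p = 0.0397) and by limma-voom (-0.22, adjusted p = 0.0381), and was 0.02 with library sizes alone. Mt2, at mm10 chr8:94172618-94173567 on the plus strand, had 18.1, 25.3, 22.3 and 35.0 CPM in KO libraries, against 27.5, 14.7, 26.5 and 9.72 CPM in ctrl libraries, in the same library order. The groups overlapped, with ctrl 514 and 518 below every KO library and KO 516 above every control (log2 fold change 0.36, SE 0.33, 95% interval -0.38 to 1.10, edgeR adjusted p = 0.419), and leaving out single libraries gave 0.16 to 0.57. The transcripts of this pair share no identical run longer than 20 bases, but 73.5% of the Mt2 exon bases lie opposite the antisense gene Gm45774. Counting ignored strand, so reads of Mt2 and of that gene cannot be told apart; the other 9 members overlap no annotated gene in this way.

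Of 12 other tested genes for metallothioneins and zinc handling, 2 were called higher, 1 lower and 9 had no call. Among all tested genes, 15.4% were called higher and 18.9% lower. Slc39a8, a zinc and manganese importer, averaged 10.5 ± 1.66 CPM in KO and 5.46 ± 0.888 CPM in ctrl (log2 fold change 0.95, edgeR adjusted p = 0.00264). Slc39a13, which moves zinc out of vesicles, had a log2 fold change of 0.32 (edgeR adjusted p = 0.0452) and Slc30a5, which loads zinc into the secretory pathway, one of -0.27 (edgeR adjusted p = 0.0149). Slc30a1, the zinc exporter that shares its metal response with the metallothioneins, was at 0.54 and did not pass (edgeR adjusted p = 0.0620). With the muscle covariate Slc39a8 kept its call, while Slc39a13 (0.42, edgeR adjusted p = 0.0521) and Slc30a5 (-0.25, edgeR adjusted p = 0.0915) lost theirs.

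Lcn2, a secreted protein that binds bacterial iron carriers and is induced in inflammation, lies at mm10 chr2:32384637-32387739 on the minus strand. It was near the lower end of detection, with 10.5 to 48.5 counts per library. Its level was 0.642, 0.827, 1.18 and 1.79 CPM in KO libraries 512, 513, 515 and 516, against 0.702, 0.399, 0.705 and 0.792 CPM in ctrl libraries 511, 514, 517 and 518. KO 516 and KO 515 were the highest, and KO 512 was below 3 of the 4 controls. The log2 fold change of 0.77 was imprecise (SE 0.36, 95% interval -0.03 to 1.58, edgeR adjusted p = 0.123). It was 0.44 without KO 516 and 0.57 with the muscle covariate, below Tsc22d3 in both fits. Of 11 neutrophil markers, 10 were in the table and 8 of these were under 1 CPM in every library, with sums of 1.22 to 2.99 CPM in KO and 1.44 to 5.42 CPM in ctrl.

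Of 16 other tested genes linked to Lcn2 or the acute phase, 2 were called higher, 2 lower and 12 had no call, beside 15.4% and 18.9% of all tested genes. Slc22a17, a receptor reported to take up Lcn2, averaged 34.5 ± 2.46 CPM in KO and 17.0 ± 4.26 CPM in ctrl, with no overlap (log2 fold change 1.02, SE 0.16, edgeR adjusted p = 0.00189). Haptoglobin (Hp), an acute phase protein that fat also makes, averaged 461.9 ± 95.6 CPM in KO and 960.2 ± 219 CPM in ctrl (log2 fold change -1.06, edgeR adjusted p = 0.00388). Lrg1, a further acute phase glycoprotein, was at -0.63 (edgeR adjusted p = 0.0104). The other gene called higher was the cytokine gene Tnf, at 0.989 ± 0.355 CPM in KO and 0.338 ± 0.183 CPM in ctrl, named after its value was seen (log2 fold change 1.53, edgeR adjusted p = 0.0260). Complement C3, at -0.73, varied widely in controls and did not pass (edgeR adjusted p = 0.128), but with the muscle covariate it was at -1.28 and passed (edgeR adjusted p = 0.0204).

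A wider list of 38 tested genes that glucocorticoids are known to act on, mostly as inducers, had 8 called higher, 4 called lower and 26 with no call, beside 15.4% and 18.9% of all tested genes, and a median log2 fold change of 0.36. The 8 became 2 with the muscle covariate, 15 with library sizes alone, 3 without KO 512, KO 516 or ctrl 517, 4 without KO 513 and 5 without KO 515; the 4 became 2 with library sizes alone and without KO 512, 513, 515 or ctrl 517. Ccl2, a monocyte attractant that glucocorticoids are better known to repress, had 1.28, 3.84, 6.47 and 2.77 CPM in KO libraries 512, 513, 515 and 516, against 1.25, 0.200, 0.352 and 0.339 CPM in ctrl libraries 511, 514, 517 and 518. The groups did not overlap, though KO 512 and ctrl 511 were close. The means were 3.59 ± 2.19 CPM in KO and 0.535 ± 0.480 CPM in ctrl (log2 fold change 2.73, SE 0.62, edgeR adjusted p = 0.00983). With the muscle covariate Ccl2 was at 2.29 and lost its call (edgeR adjusted p = 0.0815).

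The genes called lower in that list act in lipid and nitrogen metabolism. Acsl1, which activates fatty acids, averaged 1460 ± 53.7 CPM in KO and 2251 ± 127 CPM in ctrl (log2 fold change -0.62, edgeR adjusted p = 0.000524), and Lpin1, a phosphatidate phosphatase, 564.3 ± 89.3 CPM in KO and 960.9 ± 195 CPM in ctrl (log2 fold change -0.77, edgeR adjusted p = 0.00808). Glul and Pnpla2 were the other genes called lower. As given above, summed adipocyte markers were also lower in KO. Among the other genes called higher were Dusp1, Fbxo32, Cebpd, Pim3, Trim63 and Arrdc2, named after their values were seen. Fbxo32 and Trim63, ubiquitin ligases of muscle wasting, were at 1.17 (edgeR adjusted p = 0.0264) and 2.07 (edgeR adjusted p = 0.0380) on the log2 scale. With the muscle score as covariate they were at 0.57 (edgeR adjusted p = 0.249) and 0.39 (edgeR adjusted p = 0.362).

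The remaining lists cover coregulators, paralogs and the partners of Sgk1. Beside their counts stand 15.4% called higher and 18.9% called lower among all tested genes. Of 20 coregulators of the receptor, 5 were called lower, the targeted Kdm1a among them, and 1 higher. The chromatin remodelling ATPases Smarca2 and Smarca4 went in opposite directions, with log2 fold changes of 0.45 (edgeR adjusted p = 0.00355) and -0.36 (edgeR adjusted p = 0.00353). Ehmt1, a histone methyltransferase, was at -0.44 (edgeR adjusted p = 0.00431). Of 15 paralogs of the response genes, 4 were called lower and 1 higher: Zbtb7b, a zinc finger factor, was at -0.63 (edgeR adjusted p = 0.000553), Fkbp8, an immunophilin, at -0.28 (edgeR adjusted p = 0.00613) and the repressor Zbtb20 at -0.58 (edgeR adjusted p = 0.0471). Of 14 genes listed as regulators and substrates of Sgk1, 3 were called higher and 2 lower, with Pdk1 counted among the lower. Ndrg1, a classical Sgk1 substrate, averaged 70.1 ± 3.14 CPM in KO and 57.2 ± 2.26 CPM in ctrl (log2 fold change 0.29, edgeR adjusted p = 0.00708). Mapkap1, a subunit of the complex that phosphorylates Sgk1, was at -0.40 (edgeR adjusted p = 0.00313), and Pdk1, a pyruvate dehydrogenase kinase and not the kinase Pdpk1 that activates Sgk1, at -0.66 (edgeR adjusted p = 0.00739). Pdpk1 itself was at -0.12 and had no call (edgeR adjusted p = 0.302). With the muscle covariate Pdk1 (-0.56, edgeR adjusted p = 0.0544) and Zbtb20 (-0.69, edgeR adjusted p = 0.0822) lost their calls. Over all 134 tested genes of the 8 lists that are not members, 13.4% were called higher and 21.6% lower with a median log2 fold change of 0.01, close to the background of all tested genes.

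Per kb of transcript, Hsd11b1 and Mt1 were the most abundant members in both groups. In KO the level of Hsd11b1 was 309 ± 68.7 CPM per kb and that of Mt1 was 276 ± 16.3 CPM per kb, with overlapping ranges. In ctrl Mt1, at 313 ± 25.0 CPM per kb, was above Hsd11b1, at 203 ± 17.5 CPM per kb, with no overlap. Tsc22d3, Mt2, Sgk1 and Klf9 followed at 34.3 to 46.2 CPM per kb in KO and 25.1 to 35.7 CPM per kb in ctrl, in a different order in each group, and neighbours among these 4 overlapped. Nr3c1 came next, clear of Klf9 in KO but overlapping Sgk1 in ctrl, at 17.3 ± 1.53 CPM per kb in KO and 22.0 ± 3.49 CPM per kb in ctrl. Zbtb16 and Fkbp5 overlapped, at 4.73 ± 2.26 and 3.94 ± 0.713 CPM per kb in KO and 3.83 ± 2.00 and 2.74 ± 0.831 CPM per kb in ctrl. Lcn2 was lowest, at 1.32 ± 0.604 CPM per kb in KO and 0.773 ± 0.205 CPM per kb in ctrl.

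The members followed no single pattern within the groups. Relative to their group means on the log2 CPM scale, Sgk1 and Mt2 were both high in KO 516 (0.35 and 0.52), ctrl 511 (0.52 and 0.61) and ctrl 517 (0.35 and 0.56), and both low in KO 512 (-0.37 and -0.43) and ctrl 518 (-0.53 and -0.88). Zbtb16 went the other way in KO 512 (0.77) and KO 516 (-0.49), but was low with them in ctrl 518 (-0.88). It was near its group mean in ctrl 511 (-0.08) and ctrl 517 (0.03), and highest in ctrl 514 (0.93). Hsd11b1 was highest in KO 512 (0.43), where Sgk1, Mt2, Lcn2 and Tsc22d3 were all below their group means. These deviations describe single libraries and were not tested.

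**Figure D5:**
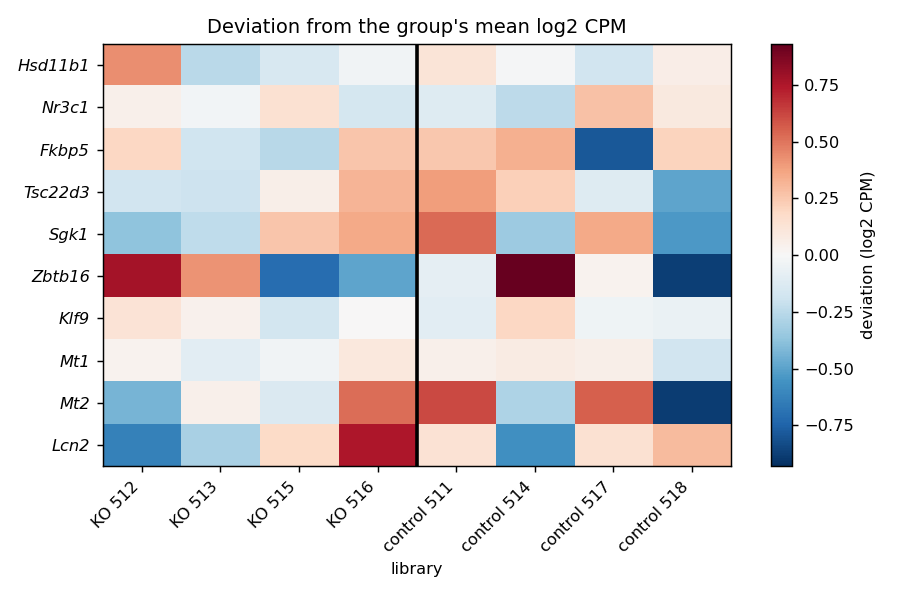
Deviation of each gene's log2 CPM from the mean of its own group, for the 4 KO libraries left of the black line and the 4 control libraries right of it. Red is above and blue below the group mean; rows differ in which libraries are high, and KO 512 is high for Hsd11b1 and Zbtb16 but low for Sgk1, Mt2 and Lcn2.

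Among 10350 tested genes averaging 5 CPM or more, those most like Hsd11b1 in log2 CPM over the 8 libraries were Gpc3 (Pearson's r = 0.96), Fam160a1 (0.95) and Coro6 (0.95). Fam160a1 and Coro6 were also called higher in KO, with log2 fold changes of 0.72 (edgeR adjusted p = 0.0131) and 0.94 (edgeR adjusted p = 0.00349), so the group difference is part of that likeness. For deviations from the group means, which remove that difference, the closest genes were Bag1 (0.98), Nudcd3 (0.97) and Tmem135 (0.96). In Bag1, as in Hsd11b1, KO 512 was the highest KO library, while Bag1 was lower in KO than in ctrl. With 8 points and 10350 candidates such values describe these libraries, and they are given with no p.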

How the data were processed

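Trizol-extracted total RNA of brown adipose tissue was sequenced by Illumina's standard procedure, per the labels' protocols. The submitters' processing notes name mm10, TopHat2 version 2, HOMER and edgeR. The estimated counts were deposited by the authors as HOMER counts over RefSeq exons of both strands, without adjustment, per the file headers. Of the values, 36.9% are not whole, and they were rounded before testing. The authors' deposited comparison table also holds scaled counts (a signal), a fold (ratio, knockout over control), p-values with FDR, and log2 values, per the file headers. Transcript length in bases is in the count table, per the file headers.

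The count table has 30521 rows. The 829 rows that name no symbol (0.0608% to 0.0824% of counts) were left out, and for 3969 symbols with several rows the one with the highest total was kept, which left 23683936.5 to 28570627 counts per library. edgeR 4.0.16 in R 4.3.3 kept 14178 genes (filterByExpr, minimum count 10), with TMM factors of 1.05 to 1.10 in KO and 0.898 to 0.961 in ctrl and a common biological coefficient of variation of 0.181. Genes were tested by the two-sided quasi-likelihood test of KO against ctrl without covariates, with Benjamini-Hochberg adjustment over all 14178 genes and a threshold of 0.05. The SE is the size of the log2 fold change divided by the square root of F, and 95% intervals are approximate and unadjusted.

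The members and lists were chosen with earlier results of these data known. Named genes are all members, of each list up to 4 non-members with the smallest p and a mean of at least 1 CPM, Kdm1a, Ucp1, and 3 genes by each measure of likeness; others are marked in the text, and a few genes are counted in the totals but not reported here by name. Of 239 list entries, 237 matched by symbol, 1 by a synonym and 1 not at all. Replicates differed beyond sampling noise, with a correlation of log2 CPM of 0.985 to 0.991 within KO and 0.963 to 0.981 within ctrl. Motifs were searched on both strands with Python 3.11.15, and overlaps were read from GENCODE M21. The fit was tested on simulated counts. Alternatives used RLE, upper quartile and no scaling factors, no filter, summed rows, a skeletal muscle score, DESeq2 1.42.0, limma 3.58.1 and each library left out. All columns of per-sample values were matched to a library.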

Additional observations from a re-analysis of the deposited data

Results flagged for a closer look

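For the 41 genes named, the highest or lowest of the 4 libraries of a group stood far from the other 3 in 8 of 82 groups; chance flags about 1 in 20 groups. In the members, ctrl 517 had 5.24 CPM of Fkbp5 where the other controls had 10.6 to 11.5 CPM, ctrl 514 had 129 CPM of Klf9 where the others had 105 to 109 CPM, and ctrl 518 had 147 CPM of Mt1 where the others had 172 to 176 CPM. Each of these is a single control library, a different one for each gene, and without it the log2 fold change was 0.32 for Fkbp5, 0.06 for Klf9 and -0.21 for Mt1, of which Mt1 then passed the test.

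Among the other genes, KO 512 had 239 CPM of Bag1 (others 193 to 198 CPM), KO 515 had 70.1 CPM of Mapkap1 (others 61.0 to 61.7 CPM), KO 516 had 114 CPM of Fkbp8 (others 120 to 122 CPM) and 67.8 CPM of Smarca2 (others 71.9 to 72.7 CPM), and ctrl 511 had 1.25 CPM of Ccl2 (others 0.200 to 0.352 CPM). Fkbp8 apart, each of these libraries lay on the side of the other group.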

How the results depend on the processing

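No paired analysis was possible because the groups share no replicate numbers. Hsd11b1 kept its direction and its call in all alternatives but the muscle covariate (0.53, edgeR adjusted p = 0.0768); leaving out single libraries gave log2 fold changes of 0.436 to 0.682. Klf9, with no call in any fit, changed sign with RLE factors (0.00402), upper quartile factors (0.0911), library sizes alone (0.187), the muscle covariate (0.109), DESeq2 (0.004), and without KO 512 and ctrl 514 together (0.0142, an alternative chosen after seeing the data); single libraries left out gave -0.0555 to 0.0566, with 0.042 without KO 515 and 0.0566 without ctrl 514. Mt1 changed sign with library sizes alone (0.0174). Members called higher were 4 with library sizes alone (Fkbp5 and Sgk1 added), 1 with the muscle covariate and 1 to 2 with single libraries left out. Members called lower were 0 with RLE factors, upper quartile factors and library sizes alone, and 0 to 1 with single libraries left out. The 1 was Mt1 and not Nr3c1 without ctrl 518 (edgeR adjusted p = 0.0397) and by limma-voom (limma-voom adjusted p = 0.0381). Genes of the wider lists called higher were 39 with library sizes alone, 10 with the muscle covariate and 11 to 22 with single libraries left out; those called lower were 9 with library sizes alone and 19 to 28 with single libraries left out. Over all tested genes, 4077 were called higher with library sizes alone, 1446 with the muscle covariate and 1527 to 2260 with single libraries left out, and 1625 were called lower with upper quartile factors, 930 with library sizes alone and 1900 to 2655 with single libraries left out. Of the other receptor and chaperone genes, 7 were called lower with upper quartile factors, 2 with library sizes alone, 7 with the muscle covariate and 5 to 9 with single libraries left out. Upper quartile factors and library sizes alone moved the median log2 fold change of all genes by 0.103 and 0.198, so directions of small changes hold relative to TMM scaling. With 4 libraries a group, changes of the size of Sgk1, Fkbp5 or Lcn2 did not pass at this spread, and a missed call does not show that levels are equal.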

Other observations

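Library ctrl 518 stood at the edge of its group for several of these genes, which was seen after the values were known. It was the lowest control for Tsc22d3 (40.2 CPM), Sgk1 (40.1 CPM), Zbtb16 (9.57 CPM), Mt1 (147.4 CPM) and Mt2 (9.72 CPM). It was the highest control for Lcn2 (0.792 CPM) and lay between other controls for Hsd11b1, Nr3c1, Fkbp5 and Klf9. Among the other response genes it was also the lowest for the clock gene Per1, which glucocorticoids induce (15.9 CPM), and for Angptl4, a lipoprotein lipase inhibitor (128.2 CPM). Other genes of that list named above went both ways. Ctrl 518 was the lowest control for Pim3, Arrdc2 and Pnpla2. It was the highest for Dusp1 (73.8 CPM), Glul (2363 CPM), Lpin1 (1136 CPM) and Trim63 (7.61 CPM). For Cebpd, Fbxo32, Acsl1 and Ccl2 it lay between other controls. In the same library Hspa8 (363.5 CPM), H6pd (444.1 CPM) and Hp (1226 CPM) were at their highest. Per1 had 79.97, 67.5, 122.6 and 134.2 CPM in KO libraries 512, 513, 515 and 516, against 66.7, 60.8, 48.5 and 15.9 CPM in ctrl libraries 511, 514, 517 and 518. Angptl4 had 658.3, 580.6, 642.9 and 739.1 CPM in KO libraries, against 540.9, 391.6, 351.7 and 128.2 CPM in ctrl libraries, in the same order. In both genes every KO library was above every control, as was the case in 15.7% of all tested genes. Neither was called (log2 fold change 1.08, edgeR adjusted p = 0.0636 for Per1, and 0.89, edgeR adjusted p = 0.0717 for Angptl4).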
